A study of Homo sapiens with 59 samples.

Results

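Lowering leucine and lowering valine are set against each other here in Jurkat cells, an established line of human T cell leukaemia, by bulk RNA sequencing at day 3. The comparison used 14 of the series' 59 libraries: 5 from medium with leucine at 25%, 5 from medium with valine at 25%, and 4 branched-chain control libraries (numbered 1, 3, 4 and 5) that served both restrictions. What the control medium held is labelled only as control, and the labels do not say if libraries grouped together were grown apart, so every p-value below rests on variation among libraries that may be technical. The leucine and valine libraries were deposited in separate tables of normalised counts, each scaled on its own. Each restricted library was therefore expressed on the log2(normalised count + 1) scale over the control mean of its own table, gene by gene, and the leucine libraries were then compared with the valine libraries.

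Transcripts of T cell markers were present, as were some markers of other cell types. All 12 T cell markers examined were detected, and their normalised counts summed to 56219.6 to 64498 in leucine-restricted, 65249 to 84363 in valine-restricted and 49869 to 83320 in control libraries. Of 21 markers of B cells, myeloid, erythroid, epithelial, endothelial cells and fibroblasts, 8 (among them MS4A1, LYZ, EPCAM and KRT19) were missing from a table. The sums of all 21 reached 1537 in leucine-restricted, 3076 in valine-restricted and 2718 in control libraries. In a restricted group, 9 of the 21 averaged 10 or more. Among these were PECAM1 (746 with leucine and 608 with valine restricted), CD79A (298 and 328), COL1A1 (258 and 381) and KRT18 (97.5 and 101). COL3A1 collagen mRNA stood at 665 normalised counts in valine library 5 and 502 in control library 4, against at most 14.9 in the other 12 libraries, and each count of calls was also made without these 2 libraries. Ribosomal protein mRNAs took 12.9% of the total in control library 1 against 7.30% to 7.67% in the other controls, and 8.09% in valine library 2 against 5.42% to 6.79% in the other valine libraries. Normalised counts summed to 15.5 to 16.6 M in the leucine-restricted, 15.7 to 16.6 M in the valine-restricted and 15.5 to 19.0 M in the control libraries, with no read depth given.

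Leucine and valine are branched-chain amino acids that cells must take up from the medium. Both enter T cells mainly through the exchanger built from SLC7A5 and SLC3A2, and both are broken down by the same aminotransferases (BCAT1, BCAT2) and the same dehydrogenase complex, after which their routes part. Leucine is also a signal: it is sensed by the Sestrins, which in its absence inhibit GATOR2, a complex needed for the activity of mTORC1, the kinase that drives translation of ribosomal protein and elongation factor mRNAs and raises glycolytic and lipid synthesis genes. Valine has no such well-known sensor, but a shortage of any amino acid can leave its transfer RNA uncharged, which activates the kinase GCN2 (EIF2AK4) and the transcription factor ATF4. The comparison asks which mRNAs responded differently to the shortage of 2 amino acids that share a transporter and the start of their breakdown.

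Leucine and valine restriction left many mRNAs at different levels, with about as many higher as lower. Of 16234 genes that averaged 10 or more normalised counts in both tables, 3633 (22.4%) differed at a Benjamini-Hochberg adjusted p below 0.05 in limma. Of these, 1821 (11.2%) were higher and 1812 (11.2%) lower with leucine restricted, and the median over all genes tested was a log2 difference of -0.01. Only 427 (2.63%) were called and at least 2-fold apart, 214 higher (1.32%) and 213 lower (1.31%). The libraries did not overlap for 3021 genes (18.6%). When all libraries were brought to equal totals instead of the deposited scaling, 36.0% rather than 50.1% of the called genes were higher with leucine, so the even split is relative to that scaling.

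**Figure D1:**
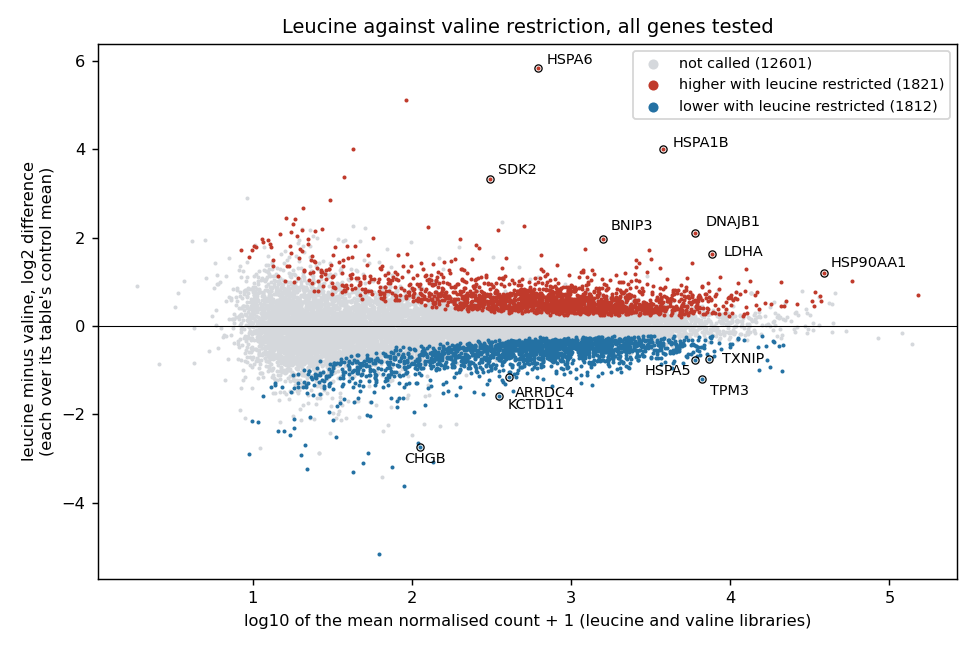
Leucine minus valine difference (vertical axis, log2, each restriction over its own control mean) against the log10 mean normalised count + 1 of the restricted libraries (horizontal axis) for the 16234 genes tested. Red points are the 1821 genes higher and blue points the 1812 genes lower with leucine restricted; HSPA6, at 5.84, lies farthest above 0.

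Against the controls, 1277 of 16488 genes (7.75%) were called for leucine (563 higher, 3.41%, and 714 lower, 4.33%) and 2096 of 16771 (12.5%) for valine (861 higher, 5.13%, and 1235 lower, 7.36%). These counts rest on few libraries. The leucine count was 649, 512, 512 and 555 without leucine library 1, 3, 4 or 5, and 842 and 677 without control 3 or 5. The valine count was 1362, 1300 and 1366 without valine library 1, 3 or 5 and 1112 without control 5, and 896 without valine library 5 and control 4 together. Among the 1821 genes higher with leucine, 598 were called lower than control with valine and not called with leucine, 168 were called higher than control with leucine only, 81 lower in both, 7 in opposite directions, and 967 in neither. Among the 1812 genes lower with leucine, 454 were called higher than control with valine and not with leucine, 171 lower with leucine only, 26 higher in both, 20 lower in both, 3 in opposite directions and 1138 in neither. Both comparisons share their control libraries.

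The cytosolic heat-shock genes held the greatest single difference, that of HSPA6. These genes encode chaperones that fold newly made or damaged protein, and the inducible ones are switched on by the transcription factor HSF1 through repeats of the heat shock element. Of 23 members tested, 11 were higher and 3 lower with leucine restricted, against 11.2% of all genes in each direction, and the list's median difference was 0.29. Against control, 5 members were called higher and 1 lower with leucine, and 6 higher and 11 lower with valine. Of all genes, 3.41% were called higher and 4.33% lower than control with leucine, and 5.13% and 7.36% with valine. The valine-restricted libraries thus held members on both sides of control. HSPA6, an inducible HSP70 that is nearly silent in most unstressed cells, stood at 265, 763, 1324, 2309 and 1453 normalised counts in leucine libraries 1 to 5, against 5.74, 38.1, 21.1, 20.1 and 15.4 in valine libraries 1 to 5 and 1788, 1339, 1502 and 1448 in the controls (leucine-table values). Leucine library 1 was the lowest of its group, yet every leucine library lay above every valine library. Such non-overlap was required of genes picked as the greatest differences, HSPA6, DNAJB1 and HSPA1B among them. It held for 18.6% of all genes tested. The HSPA6 difference was 5.84 (SE 0.53, limma adjusted p = 2.29e-05), a 57.3-fold gap. HSPA6 was at -0.63 against control with leucine restricted (adjusted p = 0.432) and -6.46 with valine restricted (adjusted p = 9.47e-07). In bulk RNA, fewer cells that express a gene and less RNA of it per cell cannot be told apart.

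The promoters of 3 such genes are shown because they carry the elements through which HSF1 acts; sequences are from RefSeq (GRCh38.p14), 250 bases before to 50 bases after a gene start, 5′ to 3′ on the gene's strand, and capitals mark GAANNTTC or TTCNNGAA, pairs of heat shock half-sites, each searched on both strands.
HSPA6, chr1:161524290-161524589, plus strand: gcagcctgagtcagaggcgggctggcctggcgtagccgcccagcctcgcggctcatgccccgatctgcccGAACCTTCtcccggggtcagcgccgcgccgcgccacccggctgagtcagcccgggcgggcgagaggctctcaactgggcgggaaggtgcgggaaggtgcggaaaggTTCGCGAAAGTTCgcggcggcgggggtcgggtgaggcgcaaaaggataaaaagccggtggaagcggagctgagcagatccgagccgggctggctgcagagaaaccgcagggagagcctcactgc
DNAJB1, chr19:14518348-14518647, minus strand: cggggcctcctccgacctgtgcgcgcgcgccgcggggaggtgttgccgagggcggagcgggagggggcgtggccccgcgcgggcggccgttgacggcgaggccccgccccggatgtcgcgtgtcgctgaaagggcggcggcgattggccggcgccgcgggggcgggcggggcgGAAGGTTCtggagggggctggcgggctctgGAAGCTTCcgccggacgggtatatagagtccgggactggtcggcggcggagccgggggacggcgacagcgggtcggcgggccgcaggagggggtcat
HSP90AA1, chr14:102086995-102087294, minus strand: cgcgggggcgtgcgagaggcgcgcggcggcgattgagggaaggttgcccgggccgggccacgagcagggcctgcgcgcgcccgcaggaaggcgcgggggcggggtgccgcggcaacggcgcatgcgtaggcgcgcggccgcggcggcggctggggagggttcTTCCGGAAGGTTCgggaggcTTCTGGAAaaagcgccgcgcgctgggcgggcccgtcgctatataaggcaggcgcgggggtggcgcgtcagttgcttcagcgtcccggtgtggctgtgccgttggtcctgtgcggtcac
DNAJB1 had 3 windows, of which 2 held a match, and HSP90AA1 had 2, of which 1 did. The window with the most matches is shown for each. GAANNTTC occurred in 6.77% and TTCNNGAA in 7.74% of all 35116 promoter windows. In the 19 windows of list members called higher the shares were 42.1% and 26.3%. Counted by member, a match to either in any window was found for 8 of 11 called higher, 3 of 3 called lower and 4 of 7 not called. No such count by gene was made over all genes. Over every gene called higher with leucine, the shares of windows were 5.57% and 6.27%, against 4.85% and 6.09% for all genes tested. A match describes these letters and is not evidence of binding.

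DNAJB1, the HSP40 co-chaperone that delivers clients to HSP70, showed the same order at a higher level. It stood at 4662, 9055, 10009, 13385 and 11202 normalised counts in the leucine libraries, against 2301, 2286, 2076, 2298 and 2446 in the valine libraries and 9642, 6442, 7586 and 8070.1 in the controls. The valine libraries lay closely together and below all others, and the difference was 2.11 (SE 0.21, adjusted p = 4.1e-05). HSPA1B, another inducible HSP70, had 1570.2, 4685, 7951, 12600.1 and 8973 in the leucine libraries, against 436, 503, 335, 339 and 324 in the valine libraries, a difference of 4.02 (adjusted p = 5.27e-05). Its near-identical copy HSPA1A, named after its values were seen, differed by 5.12, and reads of the pair could have been divided between them, so each alone is uncertain. HSP90AA1, the stress-inducible HSP90, was called in opposite directions against control: it stood at 40264, 51096, 54888, 64202 and 56967 with leucine, against 27498, 23655, 22162, 24644 and 25077 with valine and 38093, 27929, 35946 and 31575 in the controls. That is 0.67 over control for leucine (adjusted p = 0.0181) and -0.52 for valine (adjusted p = 0.023), with a difference of 1.20 (SE 0.12, adjusted p = 3.77e-05). Not every chaperone followed. DNAJA1, STIP1 and DNAJB6, also named after their values were seen, were lower with leucine, at -0.40, -0.53 and -0.22, and the constitutive HSPA8 differed by -0.15 (adjusted p = 0.215).

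Glycolysis and hypoxia genes were higher with leucine than with valine in most members. They encode the enzymes and transporters that turn glucose into lactate, together with targets of the hypoxia-inducible factors, many of which are the same genes. Of 32 members tested, 25 were higher with leucine (78.1%, against 11.2% of all genes) and none lower, with a median difference of 0.75. Against control the list's median was -0.11 with leucine, where 4 members were called lower and 1 higher, and -0.81 with valine, where 27 were called lower. Among all genes, 4.33% were called lower and 3.41% higher than control with leucine, and 7.36% lower with valine. The list's median in single libraries ran from -0.28 to 0.05 with leucine and from -1.05 to -0.75 with valine, with no overlap. LDHA, the lactate dehydrogenase subunit that reduces pyruvate, stood at 10676, 10159, 11935, 12939.8 and 11685 normalised counts in the leucine libraries, against 3773, 3862, 3881, 4356 and 3564 in the valine libraries and 17774, 10139, 11487 and 12275 in the controls. The leucine and control ranges overlapped and all valine libraries lay below both, and the difference was 1.64 (SE 0.09, adjusted p = 1.57e-07). BNIP3, a mitochondrial receptor for autophagy, had 2146, 2582, 2478, 2699.7 and 2657 with leucine, against 668, 720.3, 550.3, 712 and 674 with valine and 3438, 2299.9, 2030.3 and 2570.4 in the controls, a difference of 1.98 (SE 0.10, adjusted p = 1.32e-07). It was -0.02 against control with leucine (adjusted p = 0.959) and -1.997 with valine (adjusted p = 1.05e-05).

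GPI, which converts glucose 6-phosphate to fructose 6-phosphate, stood at 3051 to 4099.9 normalised counts with leucine, against 1386 to 1726 with valine and 3017 to 4209.7 in the controls, a difference of 1.33 (adjusted p = 3.37e-06). SLC16A3, the lactate exporter MCT4, had 337, 468, 329.5, 489.5 and 347 with leucine, against 117, 117, 102, 174 and 151 with valine, a difference of 1.76 (SE 0.17, adjusted p = 3.27e-05). BHLHE40, a transcriptional repressor induced in hypoxia that is not in the list, had 234, 361, 296, 357 and 336 with leucine, against 68.8, 89.4, 106, 84.5 and 76.8 with valine, a difference of 1.97 (adjusted p = 9.52e-06). In all 3 the valine libraries lay below every leucine library, which the rule that named SLC16A3 and BHLHE40 required. The libraries did not overlap for 18.6% of all genes tested. Of the members named after their values were seen, the collagen prolyl hydroxylase P4HA1 differed by 1.75, the glucose transporter SLC2A1 by 1.24 and the pyruvate dehydrogenase kinase PDK1 by 0.91. VEGFA, an angiogenic growth factor, and EGLN3, an oxygen-sensing hydroxylase, were not called (differences of 0.13 and 0.24, adjusted p = 0.412 and 0.42), and EGLN3 was lower than control in both restrictions, at -1.08 with leucine and -1.32 with valine.

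**Figure D2:**
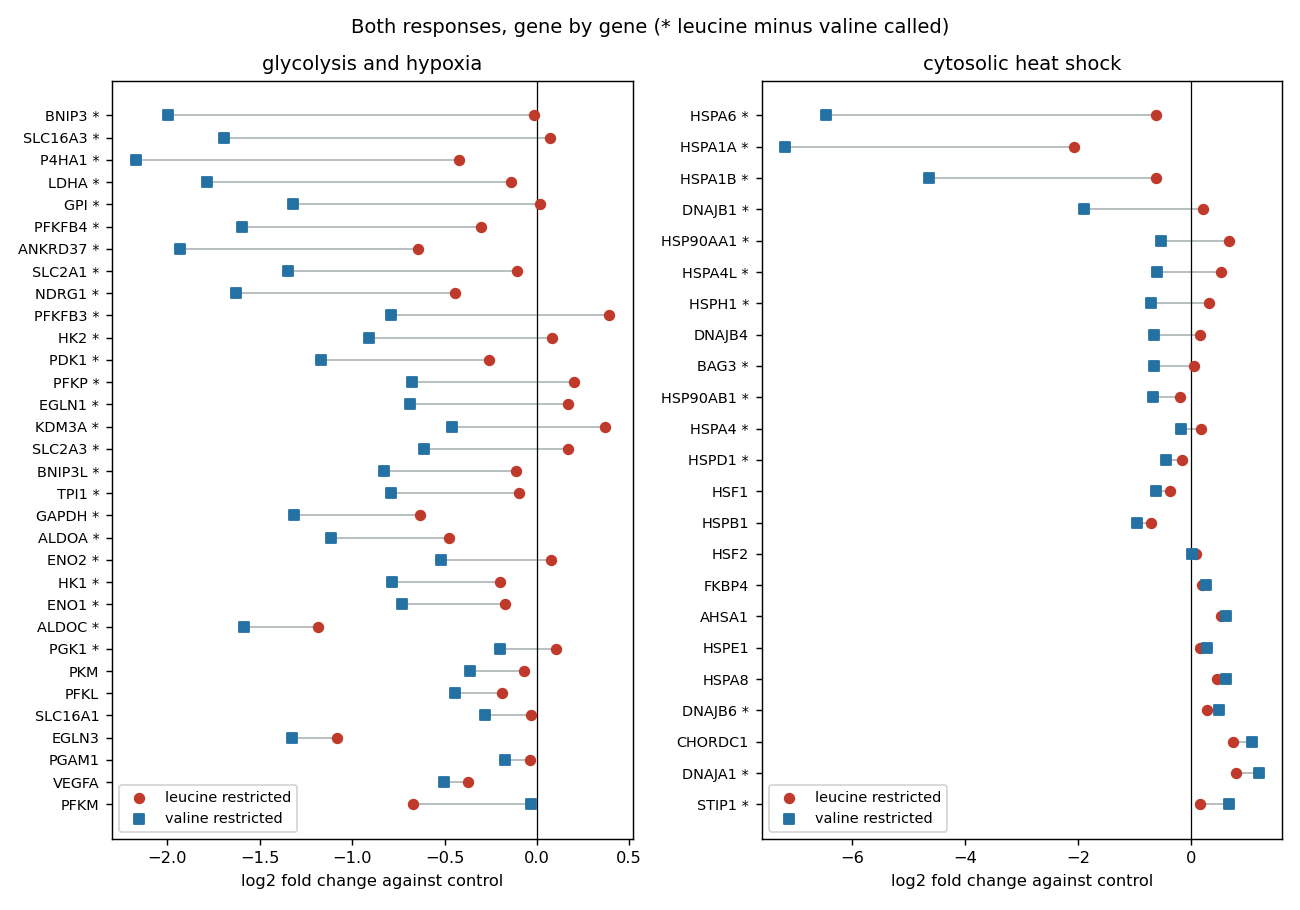
Log2 fold change against control (horizontal axis) for each tested member (rows) of the glycolysis and hypoxia list, left, and the cytosolic heat-shock list, right; red circles are leucine and blue squares valine restriction, and an asterisk marks members whose leucine minus valine difference was called. For BNIP3 the circle sits at -0.02 and the square at -1.997; for HSPA6 they sit at -0.63 and -6.46.

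The promoters of BNIP3 and LDHA are shown for the hypoxia response core, ACGTG on either strand, in capitals; where it lies in the palindrome CACGTG, a site also read by MYC, MAX and other E-box factors, the E-box is in capitals as a whole.
BNIP3, chr10:131981874-131982173, minus strand: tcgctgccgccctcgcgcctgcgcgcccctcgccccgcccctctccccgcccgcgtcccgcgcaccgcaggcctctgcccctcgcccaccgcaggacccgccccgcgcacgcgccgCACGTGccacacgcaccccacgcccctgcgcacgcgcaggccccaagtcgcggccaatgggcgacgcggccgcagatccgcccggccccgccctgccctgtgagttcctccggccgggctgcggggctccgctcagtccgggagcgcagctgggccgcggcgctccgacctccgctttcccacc
LDHA, chr11:18394313-18394612, plus strand: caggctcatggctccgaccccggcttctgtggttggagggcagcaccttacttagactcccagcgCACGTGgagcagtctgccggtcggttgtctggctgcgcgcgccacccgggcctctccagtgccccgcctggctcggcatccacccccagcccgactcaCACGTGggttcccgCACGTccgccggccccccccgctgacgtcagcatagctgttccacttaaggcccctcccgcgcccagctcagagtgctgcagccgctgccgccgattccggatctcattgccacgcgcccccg
LDHA had 2 windows, and the 1 that held a match is shown. ACGTG was present in 21.4% of all promoter windows and in 25.2% of those of genes tested. It was present in 20 of 43 windows (46.5%) of list members called higher, which gives 17 of 22 members with a window, and in a window of 1 of 5 members not called. Members differed in their number of windows, and no such count by gene was made over all genes. The list holds targets of the hypoxia-inducible factors by design, so a link between the core and the calls was not tested. Over all genes called higher with leucine the share was 25.2%, and over those called lower it was 28.5%. The core is therefore frequent in the list, and no more frequent among genes higher with leucine as a whole than among all genes tested.

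TXNIP was far above control with both restrictions, and farther with valine. TXNIP encodes an arrestin that binds thioredoxin and removes glucose transporters from the cell surface, and it is driven by the glucose-sensing factors MondoA (MLXIP) and MLX. It stood at 5785, 5282, 5434, 4975 and 5116 normalised counts in the leucine libraries, against 9450.0, 8026, 9316, 10224 and 10314 in the valine libraries and 268, 258, 309 and 338 in the controls. All restricted libraries lay far above the controls and all valine libraries above all leucine libraries: TXNIP was 4.18 over control with leucine (adjusted p = 1.76e-10) and 4.93 with valine (adjusted p = 1.79e-10), and the difference was -0.74 (SE 0.09, adjusted p = 0.000122). Its relative ARRDC4, another target of MondoA, had 222, 252, 267, 237 and 225 with leucine, against 565, 464, 622, 611 and 596 with valine and 61.7, 41.7, 77.8 and 58.7 in the controls, a difference of -1.15 (SE 0.13, adjusted p = 9.14e-05). KLF10, a repressor of transcription that also responds to glucose, had 479.6, 408, 527, 459 and 448 with leucine, against 962, 622, 840.1, 946 and 963 with valine and 132, 141, 151 and 151 in the controls, a difference of -0.80 (adjusted p = 0.00135). These 3 were the members called among 9 tested (33.3%, against 11.2% of all genes), and none was higher with leucine. The list's median of 0.11 had the other sign because the remaining 6, MLXIP and MLX included, lay near 0 or slightly above it.

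The TXNIP promoter is shown for its carbohydrate response element, a pair of CACGNG boxes set a fixed distance apart, through which MondoA and its partner MLX act, in capitals.
TXNIP, chr1:145996530-145996829, minus strand: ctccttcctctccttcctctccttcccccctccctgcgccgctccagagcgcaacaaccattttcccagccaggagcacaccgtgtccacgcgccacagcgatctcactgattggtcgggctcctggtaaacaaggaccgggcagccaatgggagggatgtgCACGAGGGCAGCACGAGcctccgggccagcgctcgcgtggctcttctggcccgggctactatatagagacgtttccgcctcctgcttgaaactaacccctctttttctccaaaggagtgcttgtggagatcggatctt
This element was searched on both strands and matched 20 of 35116 promoter windows (0.0570%), 1 of them this window. TXNIP had 2 windows, and the other held no match. The ARRDC4 window at chr15:97960453-97960752 held no match to these letters.

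**Figure D3:**
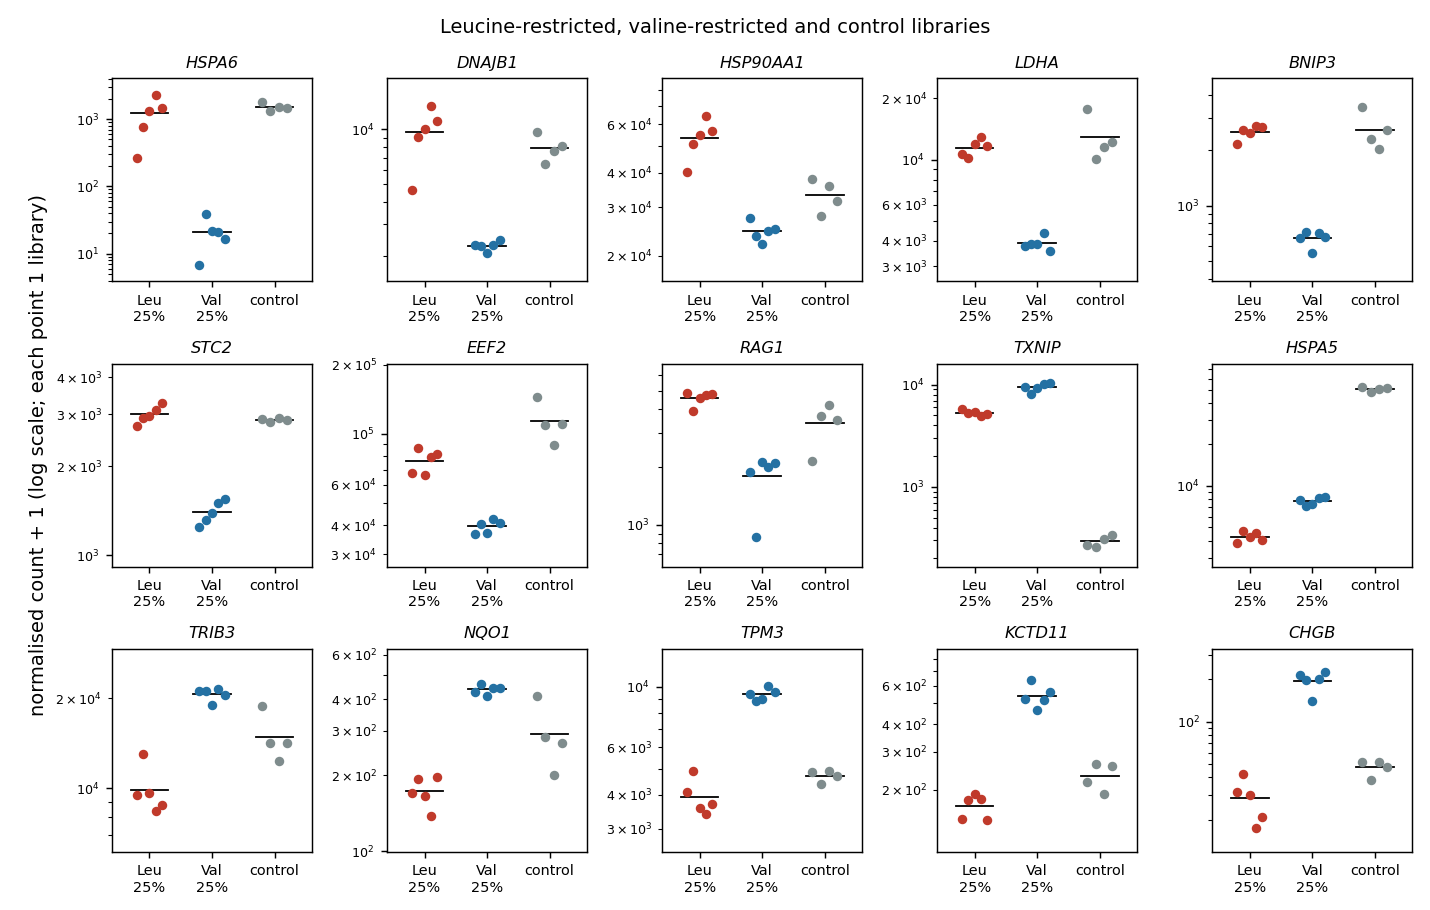
Normalised count + 1 on a log axis for 15 genes in the 5 leucine-restricted (red), 5 valine-restricted (blue) and 4 control libraries (grey, leucine-table values); each point is 1 library and each bar a group mean. In the first 8 genes the leucine libraries lie above the valine libraries, and in the last 7 below; for TXNIP the controls lie lowest and for HSPA5 highest.

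Endoplasmic reticulum chaperones were far below control in both restrictions, and several members more so with leucine. These proteins fold secreted and membrane proteins and are induced by the unfolded protein response. Of 27 members, 23 were called lower than control with each restriction, with medians of -1.67 for leucine and -1.59 for valine. Of all genes, 4.33% were called lower than control with leucine and 7.36% with valine. The difference was called lower for 8 members (29.6%) and higher for 3 (11.1%), against 11.2% of all genes each way, with a median of -0.07. Without leucine library 4 or valine library 5, 5 were lower. HSPA5 (BiP), the master chaperone of the compartment, stood at 3849.9, 4726, 4266, 4567 and 4074 normalised counts with leucine, against 7859, 7115, 7432, 8199.7 and 8369 with valine and 52165, 48233, 50184 and 51619 in the controls. The 3 groups were clearly apart, at -3.56 against control with leucine and -2.79 with valine, and the difference was -0.77 (SE 0.09, adjusted p = 7.25e-05). HYOU1, an HSP70-like partner of BiP, had 5411, 6549.9, 5505, 5910.0 and 5698 with leucine, against 9900.0, 8709.6, 9623, 11163 and 10173 with valine, a difference of -0.68 (adjusted p = 0.000216). DNAJB11, a BiP co-chaperone, had 1592, 1631, 1498, 1611 and 1522 with leucine, against 2315, 2430.4, 2134, 2447 and 2407 with valine, a difference of -0.49 (adjusted p = 0.000561). EDEM1, a lectin of protein disposal, and P4HB, a disulfide isomerase, went the other way (0.80 and 0.54; named after their values were seen).

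The amino acid stress genes differed between the restrictions in both directions, with a list median below control in each. ATF4, the factor translated when eIF2 is phosphorylated, activates both the synthesis of amino acids and, on longer stress, pro-death genes. Of 30 ATF4-linked genes, 9 were higher (30%) and 6 lower (20%) with leucine, against 11.2% of all genes in each direction (median 0.26). List medians against control were -0.30 with leucine (8 members called lower, 1 higher) and -0.47 with valine (11 lower, 1 higher). Of all genes, 4.33% were called lower and 3.41% higher than control with leucine, and 7.36% and 5.13% with valine. Single-library list medians ran from -0.31 to -0.13 with leucine and from -0.48 to -0.35 with valine. TRIB3, a pseudokinase that feeds back on ATF4, stood at 9487, 13053, 9656, 8361 and 8768 normalised counts with leucine, against 21153, 21154, 18884, 21439.7 and 20437 with valine and 18780.0, 14125, 12348 and 14107 in the controls. The leucine libraries all lay below the valine libraries and in part within the control range, and the difference was -0.99 (SE 0.11, adjusted p = 8.43e-05). DDIT3 (CHOP), a death-promoting transcription factor, had 952, 929, 803, 844 and 909 with leucine, against 1606, 2313, 1504, 1443 and 1745 with valine and 4700.0, 2026, 2098 and 2152 in the controls, a difference of -0.84 (adjusted p = 0.000399). The other direction was seen for STC2, a secreted glycoprotein of stress, which had 2737, 2910.1, 2955, 3103 and 3266 with leucine, against 1245, 1311, 1383, 1499 and 1544 with valine and 2899, 2824, 2907 and 2877 in the controls (1.19, SE 0.09, adjusted p = 4.13e-06). DDIT4 (REDD1), an inhibitor of mTORC1, had 2072, 2749, 2593, 2802 and 2537 with leucine, against 1884, 1695, 1295, 1577 and 1509.7 with valine and 5713, 3465, 3625 and 3942 in the controls (0.77, adjusted p = 0.000439). Neither TRIB3, DDIT3, STC2 nor DDIT4 was called higher than control in either restriction.

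ASNS, asparagine synthetase, a classical ATF4 target, was called by a narrow margin: it stood at 503, 615, 603, 522 and 599.9 with leucine, against 634, 273, 394, 437 and 369 with valine, which overlapped (0.54, adjusted p = 0.0418). That call was lost in 15 of 25 alternative settings, in which adjusted p reached 0.0879. CHAC1, which degrades glutathione, and SLC7A11, the cystine importer, were not called (differences of 0.28, 95% interval 0.06 to 0.49, and 0.28, 95% interval -0.22 to 0.78). The leucine sensor SESN2, an ATF4 target too, had 1429, 1745, 1337, 1544 and 1614 with leucine, against 1936, 1789.8, 1975, 2440.4 and 2216 with valine (-0.34, adjusted p = 0.0315), a call lost in 8 of 25 alternatives (adjusted p up to 0.0855). Among 17 genes of the eIF2 kinases and phosphatase, 1 was higher (5.88%) and 2 lower (11.8%), against 11.2% of all genes each way (median 0.03). Each single call but that of PPP1R15A moved with the libraries used. EIF2AK4 (GCN2), the kinase that senses uncharged transfer RNA, had 1679, 1902, 1778, 1778 and 1888 with leucine, against 1641, 1080.1, 1534, 1679 and 1520.5 with valine (0.39, adjusted p = 0.0278), a call lost in 6 of 25 alternatives (adjusted p up to 0.0811). PPP1CA, a catalytic subunit of the phosphatase, was lower (-0.35, adjusted p = 0.049) and lost its call in 13 of 25 (adjusted p up to 0.123). PPP1R15A, which restarts translation by directing the phosphatase to eIF2, had 1641, 2291, 2111, 2283 and 2259 with leucine, against 2874, 3281, 2768, 3179.5 and 3081 with valine (-0.44, adjusted p = 0.00815). Serine and one-carbon genes, which make serine, glycine and folate-bound carbon, were higher for 5 of 22 (22.7%, against 11.2% of all genes). None was lower (median 0.20), with 8 higher and 1 lower without valine library 2. PSAT1, the transaminase of serine synthesis, had 6655, 6476, 6433, 6222 and 6696 with leucine, against 4197, 3101, 4099.9, 4250.0 and 4424 with valine (0.81, adjusted p = 0.000122), and PHGDH, the entry enzyme, and the mitochondrial hydroxymethyltransferase SHMT2 differed by 0.73 and 0.55.

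The branched-chain exchanger was not called, while other transporters and the enzymes of branched-chain breakdown held members on both sides. SLC7A5 and SLC3A2, the branched-chain exchanger, stood at 31843 to 39931 and 11361 to 15524 normalised counts with leucine, against 29122 to 42501 and 11392 to 13684 with valine. Their differences were 0.03 (95% interval -0.21 to 0.28) and 0.04 (-0.17 to 0.25), and their signs turned under equal totals and other settings. Among 22 amino acid transporters 5 were higher (22.7%, against 11.2% of all genes) and 1 lower (median 0.04). The count of 5 fell to 3 without leucine library 1, 3, 4 or 5 or valine library 1, and 2 were lower without valine library 2. Of those called, the neutral amino acid exchangers SLC1A5 and SLC1A4 had 5846 to 6918 and 1719.8 to 1814 with leucine, against 3807 to 4336 and 990.3 to 1257 with valine, higher by 0.68 and 0.71 (adjusted p = 9.49e-05 and 0.000109). SLC38A7, a lysosomal glutamine carrier, was lower, at 241 to 319 against 444 to 507 with valine (-0.60). Among 25 genes of branched-chain catabolism 6 were higher (24%) and 4 lower (16%), against 11.2% of all genes in each direction, with a median of 0.05; 2 were lower without leucine library 4. BCAT1 and BCAT2, the aminotransferases that start it, were not called (0.58, adjusted p = 0.058, and -0.34, adjusted p = 0.0617), although they were called in 6 and 8 of 25 alternatives (lowest adjusted p of 0.00330 and 0.0138). BCKDHA, a subunit of the shared dehydrogenase, and BCKDK, the kinase that switches that enzyme off, were both higher with leucine, by 0.55 and 0.64, and stood at -0.54 and -0.38 against control with leucine and -1.09 and -1.02 with valine. ECHS1, a hydratase of the valine and isoleucine routes after the pathways part, was lower with leucine, with 1439, 1631, 1416, 1436 and 1317 against 2857, 2499.8, 2414, 2311 and 2596 with valine (-0.71, SE 0.09, adjusted p = 0.000136).

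The synthetases that charge the restricted amino acids onto their transfer RNAs behaved unlike each other. VARS1, for valine, had 2673, 3219, 2982, 3063 and 3042 normalised counts with leucine, against 3999.7, 4753, 4262, 4381 and 4299 with valine and 2819, 2583, 1957 and 2583 in the controls. The valine libraries lay above all others and the leucine range overlapped control; VARS1 was lower with leucine (-0.45, SE 0.08, adjusted p = 0.00173), where the valine libraries were 0.73 above control (adjusted p = 0.00297). LARS1, for leucine, had 2204, 2519, 2879, 2346 and 2307 with leucine, against 2961, 2294, 2002, 2276 and 2313 with valine, which overlapped (0.15, 95% interval -0.08 to 0.39, adjusted p = 0.347). Of 23 cytosolic synthetases 7 were higher (30.4%) and 3 lower (13%), against 11.2% of all genes each way (median 0.07). Among them QARS1 (glutamine) and EPRS1 (glutamate and proline) were higher by 0.83 and 0.69. Among 41 genes of mTORC1 amino acid sensing 6 were higher (14.6%) and 4 lower (9.76%), against 11.2% of all genes in each direction (median -0.09). The higher count was 3 without leucine library 3, and the lower count 2 without leucine library 1, 3, 4 or 5. AKT1S1 (PRAS40), an inhibitor of mTORC1, had 604, 715, 535, 565 and 749 with leucine, against 1006, 1464, 1129, 1246 and 1119.8 with valine (-0.85, adjusted p = 0.000478). RRAGD, a Rag GTPase that recruits mTORC1 to lysosomes, and RHEB, the GTPase that activates it, were higher with leucine, by 0.77 and 0.40.

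**Figure D4:**
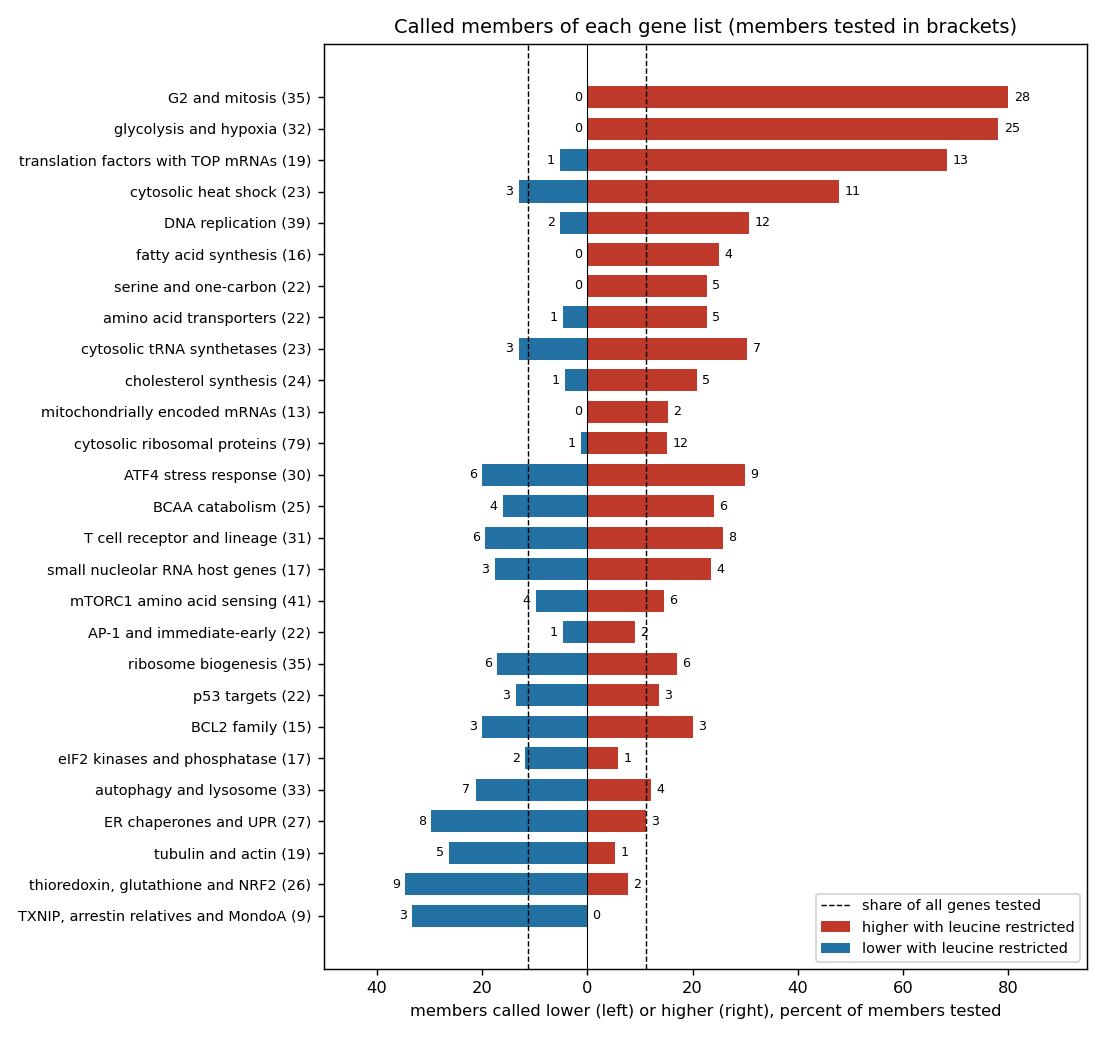
Percent of tested members called higher (red, right) or lower (blue, left) with leucine than with valine restricted, for 27 gene lists (rows; members tested in brackets, called members at the bar ends); dashed lines mark the share of all genes tested, 11.2% in each direction. G2 and mitosis (28 of 35) and glycolysis and hypoxia (25 of 32) have the longest bars to the right, and thioredoxin, glutathione and NRF2 (9 of 26) the longest to the left.

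Translation factor genes had a median below control in both restrictions, and farther below with valine. Their mRNAs start with a terminal oligopyrimidine (TOP) tract, which places their translation under mTORC1. Of 19 translation factors with TOP mRNAs 13 were higher (68.4%) and 1 lower (5.26%) with leucine, against 11.2% of all genes each way (median 0.67). Their medians against control were -0.28 for leucine and -0.96 for valine, and those of single libraries ran from -0.43 to -0.16 with leucine and from -1.05 to -0.73 with valine. EEF2, the elongation factor that moves the ribosome along, stood at 67791, 86628, 66004, 79630.2 and 81969.8 normalised counts with leucine, against 36906, 40581, 37032, 42502 and 41197 with valine and 145037, 108996, 89728 and 110447 in the controls. The groups did not overlap, and the difference was 1.03 (SE 0.10, adjusted p = 3.87e-05). EEF1B2, an exchange factor for elongation factor 1A, had 8265, 10474, 7900.4, 7834 and 6757 with leucine, against 4003, 3844, 3043, 2572 and 3018 with valine (1.43, adjusted p = 2.93e-05), and the histone chaperone NAP1L1, whose mRNA also carries a TOP tract, differed by 0.98 (adjusted p = 2.29e-05).

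Ribosomal protein genes were less separated. Of 79 members, 12 were higher (15.2%, against 11.2% of all genes) and 1 lower (median 0.13), and medians in single libraries overlapped, from -0.57 to -0.25 with leucine and from -0.89 to -0.22 with valine; valine library 2, with the greatest ribosomal protein share of its group, had the highest of the valine values. Without that library 31 members were higher and the median was 0.26; leaving out any other single library gave 8 to 15 higher and 0 to 2 lower. RPL4 stood at 13759, 22041, 20012, 17730.5 and 13966 with leucine, against 10798, 10120.1, 8066, 8012 and 8766 with valine (1.02, adjusted p = 0.000325), and RPS13 and RPS23 differed by 0.79 and 0.80; single members share sequence with pseudogenes and are uncertain. Genes of ribosome biogenesis split evenly, with 6 of 35 higher and 6 lower, 17.1% each way against 11.2% of all genes (median -0.07). FBL, the methyltransferase of ribosomal RNA, had 4508, 6061, 4754, 4755 and 5095 with leucine, against 2071, 2676, 1712, 2058 and 2287 with valine and 7268, 4353, 4198 and 4737 in the controls (1.32, SE 0.12, adjusted p = 2.29e-05), while its partner in the same small nucleolar particle, NOP56, had 3408, 3705, 3697, 3417 and 3189.8 with leucine, against 6743, 7892, 6069, 6118 and 6403 with valine and 3089, 2038, 2367 and 2278 in the controls (-0.84, SE 0.09, adjusted p = 6.03e-05). FBL was called below control with valine only, and NOP56 above control in both. NOLC1, which chaperones such particles, had 6197 to 7642 with leucine, against 3533 to 4253 with valine (0.88). Of 17 host genes of small nucleolar RNAs 4 were higher (23.5%) and 3 lower (17.6%), against 11.2% of all genes each way (median -0.01). With 1 library left out the median lay between -0.14 and 0.10. The lower count was 1 without leucine library 1, 3 or 5 or valine library 1 or 3 and 0 without leucine library 4. Of the host genes, TAF1D and SNHG32 were higher by 0.93 and 0.57, and EPB41L4A-AS1, an antisense transcript and so uncertain without a stated strand setting, by 1.13.

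Mitotic genes were higher with leucine than with valine almost throughout. Of 35 genes of G2 and mitosis, 28 were higher (80%, against 11.2% of all genes) and none lower (median 0.49), or 1 lower without valine library 2. List medians over control were 0.06 to 0.20 in the leucine libraries and -0.47 to -0.31 in the valine libraries. KIF2C, a kinesin that takes microtubules apart at centromeres, stood at 1671, 2000.1, 1918, 1841 and 1926 normalised counts with leucine, against 1087, 1167, 1126, 1118 and 1050.1 with valine and 2058, 1448, 1597 and 1694 in the controls (0.84, SE 0.08, adjusted p = 2.51e-05). The leucine and control ranges overlapped and the valine libraries lay below both. CCNB2, a mitotic cyclin, had 1082, 1014, 1055, 1152 and 1009 with leucine, against 703, 620.0, 536, 705 and 592 with valine (0.85, adjusted p = 9.7e-05), and CENPF, a kinetochore protein, differed by 0.86. MKI67, the proliferation marker Ki-67, had 8206, 7878, 9366, 9129 and 9403 with leucine, against 5129, 5232, 6434, 6907 and 6042 with valine and 4996, 8313, 9165 and 7879.6 in the controls (0.65, adjusted p = 0.000655). Of 39 DNA replication genes 12 were higher (30.8%) and 2 lower (5.13%), against 11.2% of all genes each way (median 0.19). MCM2, a subunit of the replicative helicase, had 4086, 5130.0, 4369.8, 4564 and 4543 with leucine, against 2732, 2704, 2442, 2870.4 and 2576 with valine and 3793, 2769, 3015 and 3106 in the controls (0.86, SE 0.08, adjusted p = 3.02e-05), which placed the leucine libraries above control (0.52, adjusted p = 0.0145). RPA1, which coats single-stranded DNA, and CDT1, which licenses origins, differed by 0.77 and 0.67.

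**Figure D5:**
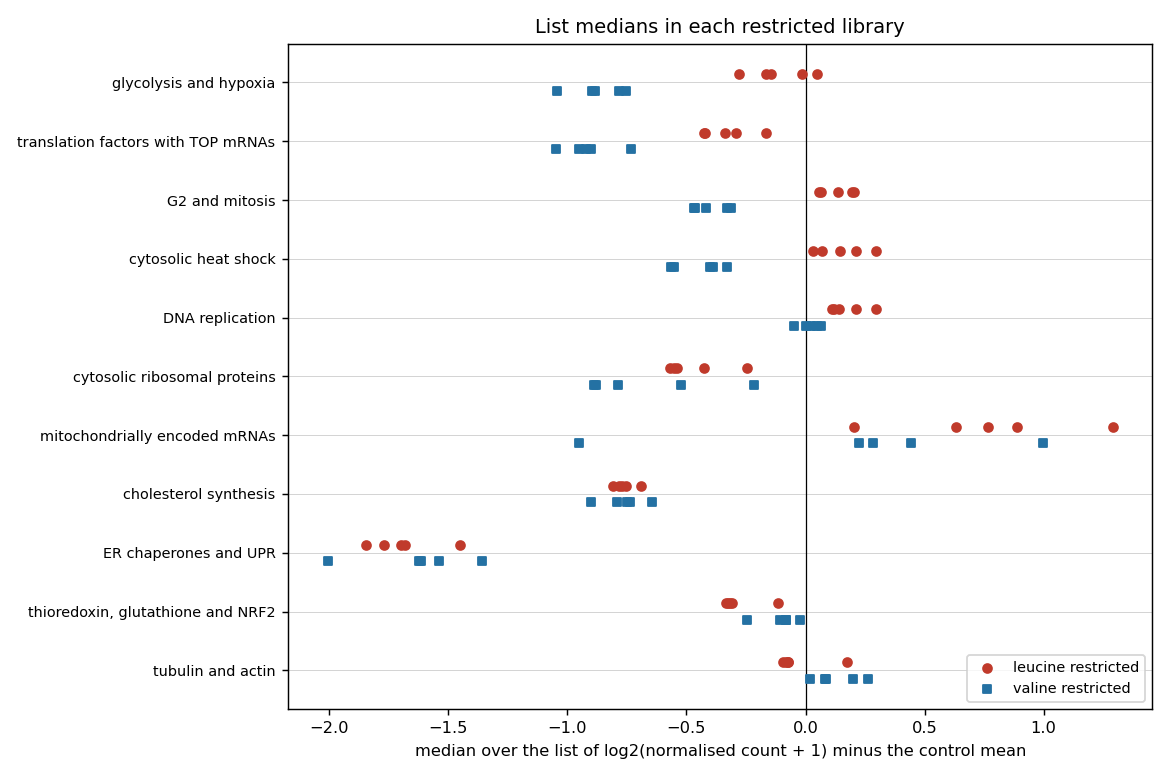
Median over each list's tested members of log2(normalised count + 1) minus the control mean (horizontal axis) in the 5 leucine-restricted (red circles) and 5 valine-restricted libraries (blue squares), for 11 lists (rows). The libraries separate for glycolysis and hypoxia (-0.28 to 0.05 with leucine, -1.05 to -0.75 with valine), and overlap for cholesterol synthesis, where all 10 lie between -0.90 and -0.64.

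Cholesterol synthesis genes were below control with both restrictions. The list, targets of the sterol-sensing factor SREBP2, had medians of -0.77 against control with leucine and -0.83 with valine, with 20 and 16 of its 24 members called lower than control. The shares of all genes called lower than control were 4.33% with leucine and 7.36% with valine. Between the restrictions 5 members were called higher (20.8%) and 1 lower (4.17%), against 11.2% of all genes each way (median 0.05). Without leucine library 2 or valine library 2, 3 or 4, 2 were lower. SREBF2, which encodes SREBP2 itself, stood at 1944, 2583, 2254, 2495 and 2605 normalised counts with leucine, against 1537, 1488, 1666, 1817 and 1719.6 with valine and 4438, 4543, 4191 and 4622 in the controls (0.61, adjusted p = 0.000848). The sterol dehydrogenase NSDHL differed by 0.90 (adjusted p = 0.000427). HMGCS1, the synthase at the head of the pathway, was below control in both, at -0.96 with leucine and -1.21 with valine, and was not called between them (0.25, adjusted p = 0.142). Of 16 fatty acid genes 4 were higher (25%, against 11.2% of all genes) and none lower (median 0.29). Without leucine library 1, 3, 4 or 5 or valine library 1, 4 or 5, 2 were higher, and 1 was lower without valine library 1. SCD, the stearoyl desaturase, had 8711, 9253, 9592, 10534 and 10849.7 with leucine, against 6848, 3873, 7056, 7579 and 7029 with valine and 13144, 15444, 17694 and 17885 in the controls (0.72, adjusted p = 0.00599), where valine library 2 lay lowest, and the desaturase FADS1 differed by 0.51 (adjusted p = 0.000425).

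Redox and cytoskeletal genes contributed to the other side. Of 26 genes of the thioredoxin, glutathione and NRF2 systems, which remove peroxides and foreign compounds, 9 were lower with leucine (34.6%) and 2 higher (7.69%). The share of all genes was 11.2% each way (list median -0.13), and 1 was higher without leucine library 4 or 5 or valine library 1. NQO1, a quinone reductase and standard NRF2 target, stood at 169.7, 192, 165, 137 and 196 normalised counts with leucine, against 429, 459, 412, 441 and 445 with valine and 409.8, 284, 199 and 269 in the controls. It was below control with leucine (-0.72, adjusted p = 0.0448) and the difference was -1.21 (SE 0.12, adjusted p = 3.86e-05). TALDO1, transaldolase of the pentose phosphate route, had 1572, 1812, 1556, 1602 and 1565 with leucine, against 2998, 3413, 2592, 2619 and 2824 with valine (-0.74, adjusted p = 0.000166), whereas the peroxidase PRDX6 had 1199, 1348, 1198, 1195 and 1223 with leucine, against 774, 695, 758, 679 and 721 with valine (0.86, adjusted p = 2.54e-05). Of 19 tubulin and actin genes 5 were lower (26.3%) and 1 higher (5.26%), against 11.2% of all genes each way (median -0.04). Without valine library 2, 4 were higher. The actin-stabilising tropomyosin TPM3 had 4088, 4904, 3583, 3389 and 3704 with leucine, against 9436, 8881, 9029, 10063 and 9571 with valine and 4857, 4403, 4888 and 4703 in the controls (-1.21, SE 0.10, adjusted p = 1.03e-05), and the actin monomer-binding PFN1 had 12598, 15022, 12741, 12601 and 13480.3 with leucine, against 28893, 34239.7, 25374, 27962 and 27976 with valine and 22687, 15022, 12437 and 14782 in the controls (-1.02, adjusted p = 2.46e-05). Both overlapped control with leucine and were called above it with valine (0.93 and 0.77), while TPM4, a related tropomyosin, was higher with leucine (0.57). Of 33 autophagy and lysosome genes 4 were higher (12.1%) and 7 lower (21.2%), against 11.2% of all genes each way (median -0.09). Among them were the proton pump subunit ATP6V0D1, at 391 to 528 with leucine against 782 to 972 with valine (-0.86), the protease CTSB (0.68) and the phagophore protein WIPI2 (0.53).

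Genes of T cell identity differed in both directions. Of 31 tested, 8 were higher (25.8%) and 6 lower (19.4%) with leucine, against 11.2% of all genes each way (median 0.07). The higher count was 5 without leucine library 1, 3, 4 or 5 or valine library 3, and the lower count 3 without leucine library 1. RAG1 and RAG2, which cut DNA to assemble the antigen receptor in developing lymphocytes, were both higher with leucine. RAG1 stood at 4871, 3896, 4589, 4762 and 4782 normalised counts with leucine, against 1877, 857, 2114, 2008 and 2091 with valine and 2141, 3677, 4193 and 3489 in the controls (1.51, SE 0.21, adjusted p = 0.00031). RAG2 had 329, 299, 407, 426 and 372 with leucine, against 217, 171, 179.8, 220.2 and 206 with valine and 500.0, 499, 666 and 558 in the controls (0.98, adjusted p = 0.000217). RAG2 was below control in both restrictions and RAG1 below it with valine only by call (-1.03, adjusted p = 0.0244). LCP2 (SLP-76), the adaptor of receptor signalling, went the other way, with 1838, 1574, 1576, 1709.8 and 1889 with leucine, against 3024, 2689, 3055, 3241 and 3237 with valine and 1633, 1529.7, 1359 and 1604 in the controls (-0.74, SE 0.09, adjusted p = 0.00012). CD3E, a signalling chain of the receptor, was lower by a narrow margin (-0.23, adjusted p = 0.0479), and lost the call in 11 of 25 alternatives (adjusted p up to 0.113).

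The remaining lists are given together here. Of 22 p53 targets 3 were higher and 3 lower (median 0.19), 13.6% each way and so near the 11.2% of all genes. Among them were cyclin CCNG1, at 1634 to 2202 with leucine against 668 to 1016 with valine (1.18), and BTG2, an anti-proliferative regulator, at 0.45. Of 15 BCL2 family genes 3 were higher and 3 lower, 20% each way against 11.2% of all genes (median -0.10; 1 higher without leucine library 5 and 6 lower without leucine library 2): the death effectors BAX and BAK1 were lower with leucine (-0.75 and -0.36), with BAX at 392 to 536 against 727 to 1111 with valine, and the survival protein MCL1 was higher (0.37), a call lost without valine library 1 (adjusted p = 0.0580). Of 22 immediate-early genes 2 were higher (9.09%) and 1 lower (4.55%), below the 11.2% of all genes each way (median 0.08). The lower gene was the growth-response factor EGR1 (-0.53). Of 10 tested markers of other cell types the endothelial PECAM1 was higher (0.39) and VWF lower (-1.14), with a median of -0.31. That is 10% each way, near the share of all genes. The 13 mitochondrially encoded mRNAs had a median of 0.53 with only MT-ND4L and MT-ND1 called, both higher (0.92 and 0.99). That is 15.4%, against 11.2% of all genes, and MT-ND1 lost its call in 4 of 25 alternatives (adjusted p up to 0.0674). Their list median in single libraries ran from 0.21 to 1.29 with leucine and from -0.95 to 1.00 with valine, and mitochondrial mRNA took between 1.62% and 5.80% of the total in the valine libraries. Without valine library 2, at 5.80%, 6 members were higher and the list's difference had a median of 0.70. Without valine library 4, at 1.62%, 2 were higher and 1 lower, with a median of 0.29, and 1 was higher without leucine library 3, 4 or 5. Over all 25 alternatives between 1 and 10 members were called higher.

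Outside these lists, the greatest positive differences included 4 genes whose valine libraries stood low. SDK2, a cell adhesion molecule of the immunoglobulin family, stood at 365, 479, 470.2, 713 and 707 normalised counts with leucine, against 10.5, 56.7, 78.6, 141 and 70.1 with valine and 812, 985, 886 and 911 in the controls (3.34, SE 0.50, adjusted p = 0.00053). PDLIM1, a scaffold of the actin cytoskeleton, had 740.2, 907, 898, 781 and 829 with leucine, against 144, 208, 183, 191 and 195 with valine and 975, 655, 632 and 764 in the controls (2.27, SE 0.12, adjusted p = 1.36e-07). The ephrin receptor EPHB2 had 322 to 422 with leucine, against 101 to 149.6 with valine and 357 to 433 in the controls (1.84, adjusted p = 4.13e-06), and the leucine-rich repeat protein ELFN2 differed by 2.25 (adjusted p = 5.94e-06). In each of these 4 the valine libraries lay below every leucine library, which the naming rule required, and also below every control library. Leucine and valine libraries did not overlap for 18.6% of all genes tested.

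The greatest negative differences outside the lists included genes whose valine libraries stood high. CHGB (chromogranin B), a protein of secretory granules, stood at 30.2, 41.1, 29.1, 16.4 and 20.0 normalised counts with leucine, against 213, 197, 140.0, 201 and 223 with valine and 50.8, 37.1, 50.1 and 46.3 in the controls (-2.75, SE 0.25, adjusted p = 2.39e-05). KCTD11, an adaptor of a ubiquitin ligase, had 147, 178, 191, 180.5 and 145 with leucine, against 524, 635, 466, 517 and 559.5 with valine and 217, 261, 191 and 255 in the controls (-1.59, SE 0.13, adjusted p = 9.52e-06). KIF26B, a kinesin family member, had 101, 96.3, 67.8, 86.9 and 104 with leucine, against 301, 205, 283, 345 and 308 with valine and 55.0, 99.4, 75.6 and 66.5 in the controls (-1.56, adjusted p = 9.7e-05). These 3 were called above control with valine (1.96, 1.14 and 1.87) and not called with leucine. The long non-coding transcripts LINC00861 and LINC02964 differed by -2.64 and -1.95, the matrix protein MATN4 by -1.63, the sulfite oxidase SUOX by -1.83 and the synaptotagmin SYT5 by -1.62, all at low levels. UPK3BL1 (-3.20, SE 0.83) and HCG18 (-3.07, SE 0.99) belong to duplicated regions, include libraries at 0 and are uncertain, and HCG18 lost its call in 8 of 24 alternatives (adjusted p up to 0.0855).

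In all, 10 of the 3633 genes called were also called against control in opposite directions. They made up 0.384% of the genes higher and 0.166% of the genes lower with leucine. Of the 10, 6 are named, HSP90AA1 among them. Single-gene calls against control were not repeated under the alternatives, so the stability of these opposite calls was not tested. DGUOK, the mitochondrial kinase of purine deoxynucleosides, stood at 787, 748, 559, 580.1 and 575 normalised counts with leucine, against 1714, 1803, 1628, 1611 and 1607 with valine and 1345, 935, 824 and 961 in the controls. That was -0.64 against control with leucine (adjusted p = 0.0315) and 0.65 with valine (adjusted p = 0.0127), a difference of -1.28 (SE 0.11, adjusted p = 1.66e-05). NSFL1C, a cofactor of the segregase VCP, had 639, 665, 613, 567 and 586 with leucine, against 1439, 1689.9, 1231, 1168 and 1256 with valine and 988, 858, 752 and 836 in the controls (-1.04, adjusted p = 5.27e-05). In the other direction, ADD2, a protein of the membrane skeleton, had 2505, 3002, 2484, 2553 and 2625 with leucine, against 1334, 1238, 1506, 1848 and 1555 with valine and 1961, 2014, 2014 and 2031 in the controls (1.00, adjusted p = 6.38e-05). In the valine table the same controls stood at 2249 to 2297 for ADD2. SLC27A2, a fatty acid transporter and acyl-CoA synthetase, had 421, 395, 418, 414 and 403 with leucine, against 213, 225, 241, 245 and 233 with valine (0.91, adjusted p = 5.88e-05), and the antisense transcript MZF1-AS1, uncertain for its strand, differed by -1.46.

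The isoleucine libraries of the series, restricted to 25% as well and set against the same 4 controls, give another branched-chain value for these genes. Their log2 fold changes against control were 0.08 for TXNIP, -0.05 for HSPA5, -0.22 for LDHA, -0.08 for BNIP3, 0.13 for DNAJB1 and 0.45 for HSPA6. With leucine the same genes stood at 4.18, -3.56, -0.14, -0.02, 0.22 and -0.63, and with valine at 4.93, -2.79, -1.78, -1.997, -1.89 and -6.46. All 3 sets of values share their controls and were not tested against each other here beyond leucine and valine.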

How the data were processed

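Per the labels' protocols, 1 µg of total RNA went into each Illumina library, and the preparation kept strand. Tools named in the submitters' processing notes were DESeq2 1.44.0, kallisto 0.50.1 and FastQC 0.11.9, with GRCh38 as the build. No label or header records the annotation release, quantification settings or strand option (not given in the sources used here). What the authors deposited are DESeq2-normalised counts, treated as a non-negative signal, with a file for every amino acid. A control library's values in the leucine table were 5.13% to 7.29% lower, at the median, than in the valine table, by a factor of that library times a factor of each gene that was the same for all 4 controls; subtracting each table's control mean takes out the factor of the gene.

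Read depth is unknown: at most 82.9% of the low values of a library were whole multiples of its smallest step within 0.1, in valine library 2 and control 1 fewer (61.7% and 58.5% to 64.2%), so whole reads were not recovered and no count model was fitted. No column of the tables used was left unmapped. Tests covered genes averaging 10 or more normalised counts in both tables and ran on log2(normalised count + 1), a scale that understates changes of low genes, with limma 3.58.1 in R 4.3.3 (lmFit, eBayes with a trend on mean level, two-sided, Benjamini-Hochberg over all genes tested; tables were read with data.table, version 1.17.8). The error of the shared control mean cancels in the difference and is not in its SE. Values of each restriction against control were fitted within their own table. Fits were tested on simulated data with known changes.

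The comparison, its 28 lists (739 genes, 706 tested) and the rule for naming genes were chosen with earlier results of these data known. Named were the 10 greatest positive and 10 greatest negative differences among called genes whose libraries did not overlap and which averaged 100 or more in their higher group, up to 3 called members of each list by adjusted p, 19 genes of amino acid stress, transport, proliferation and T cell identity, and 6 genes called in opposite directions against control; a few of these 117 genes are not reported here. Other names were added after their values were seen, as stated where they occur. Promoter windows were read from RefSeq (GRCh38.p14), which matched 11127 of the 16234 genes by symbol.

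The labels do not say if equal replicate numbers mark a shared culture or day, and the main fit did not pair them. Deviations of same-numbered leucine and valine libraries correlated at -0.01 to 0.09, never above 0.1. Such correlations cannot decide if the libraries shared an origin. Alternatives were pseudocounts of 0.25 and 5, a minimum mean of 100 or none, equal totals or scaling by trimmed mean of M values, no control subtraction, a replicate block, library weights, omission of both libraries numbered 2, and each library left out in turn. Omission of the libraries high in COL3A1 mRNA, and library weights in the fits against control, were added after seeing the data. Leucine and valine content of the encoded proteins was not analysed here.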

Additional observations from a re-analysis of the deposited data

Results flagged for a closer look

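The 3633 genes that differed between leucine and valine restriction stand out as a difference between the responses to the same contrast, and within them 6 named genes were called against control in opposite directions. Their leucine minus valine log2 differences were 1.20 for HSP90AA1, 1.00 for ADD2, 0.91 for SLC27A2, -1.04 for NSFL1C, -1.28 for DGUOK and -1.46 for MZF1-AS1, each past the threshold in limma.

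A single library lay far from the rest of its group for 39 of 384 combinations of 128 genes and 3 groups. The cut used would be passed by about 1 in 20 groups of independent normal values. These genes vary together within a library and many were chosen by their calls, so the 39 were not tested against that rate. Values are normalised counts, those of the controls from the leucine table. Leucine library 2 accounted for 11 of the 39. It was highest for ADD2 at 3002 (others 2484 to 2625), BCKDK at 899 (others 522 to 599), EGLN3 at 55.4 (others 37.3 to 41.5) and MCL1 at 3955 (others 2709 to 2992). It was also highest for P4HB at 5054 (others 4122 to 4323), PRDX6 at 1348 (others 1195 to 1223), SLC3A2 at 15524 (others 11361 to 12256) and TALDO1 at 1812 (others 1556 to 1602). It was also highest for PPP1CA at 4902 (others 3084 to 3455) and TRIB3 at 13053 (others 8361 to 9656). It was lowest for RAG1 at 3896 (others 4589 to 4871). Valine library 2 accounted for 8 of them. It was highest for RPS23 at 12770.1 (others 8371 to 9527) and SUOX at 218 (others 87.5 to 125). It was lowest for EDEM1 at 2959.9 (others 6109.7 to 7348), PSAT1 at 3101 (others 4099.9 to 4424), RAG1 at 857 (others 1877 to 2114) and RRAGD at 404 (others 676 to 756). It was also lowest for EIF2AK4 at 1080.1 (others 1520.5 to 1679) and SCD at 3873 (others 6848 to 7579). Control library 1 accounted for 11 of them. It was highest for BAK1 at 873 (others 667 to 700.2), BAX at 1288 (others 632 to 725), BCKDHA at 2493 (others 1744 to 1844) and DDIT3 at 4700.0 (others 2026 to 2152). It was also highest for EEF1B2 at 14601 (others 8032 to 8647), NSDHL at 507 (others 296 to 329.8), P4HB at 14604 (others 10153 to 10870.1) and RPS13 at 14051 (others 6541 to 7489). It was also highest for RPS23 at 34896 (others 15558 to 17772), SNHG32 at 7893 (others 4307 to 4811) and TPM4 at 8812 (others 7156 to 7283). Leucine library 1 was lowest for PPP1R15A at 1641 (others 2111 to 2291). Leucine library 4 was highest for EPRS1 at 5637 (others 4996 to 5168). Valine library 3 was lowest for TPM4 at 4483 (others 5058 to 5279.9). Valine library 5 was highest for HSPA1A at 28.5 (others 0 to 4.58). Control library 4 was highest for CD4 at 76.5 (others 38.7 to 41.1) and MZF1-AS1 at 175 (others 133 to 139) and lowest for MATN4 at 37.4 (others 63.0 to 66.0) and SESN2 at 1683 (others 1994 to 2029). Control library 5 was lowest for LINC00861 at 3.45 (others 23.0 to 27.0). Control library 1 also had the greatest ribosomal protein share, 12.9%, and valine library 2 the greatest of its group, 8.09%; their part in these values was not tested.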

How the results depend on the processing

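The count of genes called between leucine and valine stayed between 2609 and 5325 over 25 alternatives, within 1.5 times of 3633. Genes called higher were 1210 (31.1% of those called) with no control mean subtracted, where the tables' own scaling enters, and 36.0% of those called were higher at equal totals. Genes called lower were 2739 with library weights, and 162 genes were called and 2-fold apart at a mean of at least 100, where fewer genes were tested. Against control, leucine gave 771 genes with the replicate block, 2699 with library weights and 512 to 1646 with a library left out. Valine gave 4549 with weights, 896 without the libraries high in COL3A1 mRNA and 1112 to 2646 with a library left out. The replicate block gave 4423 genes between leucine and valine, and 2 of 5 leucine libraries correlated best with the valine library of their own number. Whether equal numbers mark a shared origin is not known.

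With no control mean subtracted the list medians were 0.52 for translation factors, 0.39 for G2 and mitosis, 0.18 for ATF4, 0.10 for serine and one-carbon, 0.058 for DNA replication, 0.023 for the TXNIP list, -0.024 for synthetases, -0.017 for immediate-early, -0.025 for T cell, -0.037 for cholesterol, -0.061 for eIF2, -0.15 for tubulin and actin, -0.16 for ribosome biogenesis, -0.18 for mTORC1, -0.18 for autophagy and -0.22 for thioredoxin lists; the median of all genes then lay at -0.10. At equal totals they were -0.16 for mTORC1, 0.051 for the TXNIP list and -0.15 for autophagy. With library weights they were 0.18 for ATF4, 0.11 for DNA replication, -0.16 for autophagy and -0.011 for T cell genes. Without both libraries numbered 2 they were 0.16 for ATF4, 0.094 for eIF2, 0.090 for DNA replication, 0.070 for p53 and -0.031 for T cell genes. At a mean of at least 100 they were 0.10 for BCL2 and -0.017 for other cell types, and the list of other cell types gave -0.0067 without the libraries high in COL3A1 mRNA. With a library left out, ATF4 gave 0.19 to 0.28, mTORC1 -0.10 to -0.026, the TXNIP list 0.050 to 0.14 and other cell types -0.47 to -0.0077.

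Of 2914 values for 117 named genes under alternatives, 2808 kept direction and side of the threshold, 75 lost and 20 gained a call. SLC7A5 and SLC3A2, not called, turned sign in 11: at equal totals to -0.028 and -0.020, with no control mean subtracted to -0.055 and -0.050, without both libraries numbered 2 to -0.094 and -0.016, without leucine library 2 to -0.0096 and -0.035, SLC7A5 with library weights to -0.094 and without valine library 2 to -0.050, and SLC3A2 without valine library 3 to -0.0055. With a library left out SLC7A5 lay between -0.050 and 0.086 and SLC3A2 between -0.035 and 0.078. The causes were not tested. HMGCS1 was called with the block (adjusted p = 0.0443) and CHAC1 in 5 alternatives (0.0333 at the lowest). Protein composition was not run. Without read depth, precision rests on 5, 5 and 4 libraries.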

Other observations

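Of list members outside the naming rule, 4 were chosen after their values were seen. CD4, the co-receptor of helper T cells, stood at 28.9, 30.7, 30.0, 33.5 and 23.9 normalised counts with leucine, against 3.66, 1.63, 10.1, 6.68 and 6.13 with valine and 38.7, 41.1, 76.5 and 40.0 in the controls (2.43, SE 0.36, limma adjusted p = 0.000535), a low level in every group. ALDH6A1, the dehydrogenase near the end of valine breakdown, had 374, 521, 504, 627 and 403 with leucine, against 203, 136, 321, 226 and 387 with valine, which overlapped, and 771, 748, 806 and 572 in the controls (1.08, SE 0.24, adjusted p = 0.0065). KLHL24, a ubiquitin ligase adaptor counted among ATF4-linked genes, had 987, 861, 1064, 1157 and 1130.1 with leucine, against 538, 282, 669, 608 and 604 with valine and 513, 847, 926 and 871 in the controls (1.07, SE 0.20, adjusted p = 0.0021). OSGIN1, an NRF2 target, had 57.1, 52.1, 43.1, 43.7 and 41.3 with leucine, against 111, 157, 126, 175 and 104 with valine and 192, 175, 179 and 106 in the controls (-1.32, SE 0.18, adjusted p = 0.000316). The enzymes of valine breakdown thus held members on both sides, ALDH6A1 higher and ECHS1 lower with leucine.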
